A study of Homo sapiens with 6 samples.

Results

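The nuclear receptors are the transcription factors through which cells read steroid and thyroid hormones, vitamin D, oxysterols, fatty acids and bile acids, together with orphan members whose ligand is unknown or absent. The members described here were the 43 human nuclear receptor genes in the deposited expression table other than the retinoic acid receptors RARA, RARB and RARG, taken by gene symbol out of 27672 genes. RNA-seq was performed on polyadenylated RNA, read from 1 end in 76-base reads, from 3 libraries of H9 human embryonic stem cells (hESC, day 0) and 3 libraries of neuromesodermal progenitor-like cells (NMP-L, day 3). H9 is an established human embryonic stem cell line, and all 6 libraries came from this line. The column names of all 6 libraries carry WT (wild type), a label that the paper also uses for untreated cells. According to the labels, hESCs were kept without feeder cells on fibronectin in DEF medium that held bFGF (30 ng/ml) and the BMP antagonist Noggin (10 ng/ml). NMP-L cells were made from them over 3 days in N2/B27 medium with bFGF at 20 ng/ml and CHIR99021 at 3 µM, the latter an inhibitor of GSK3 that activates Wnt signalling. By the labels, medium, bFGF dose, Noggin and CHIR99021 changed together with time, so their contributions cannot be told apart. The paper's methods differ, with TESR medium on Geltrex and with Noggin and the TGF-beta inhibitor SB431542 added before day 3. The labels were followed here. The labels call the libraries of a group biological replicates without saying how the cultures were separated, so p-values measure the spread between these libraries.

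A nuclear receptor typically carries a zinc finger domain that binds short DNA half-sites related to AGGTCA and a domain that binds a small lipophilic ligand. Steroid receptors act mainly as homodimers, many of the receptors for thyroid hormone, fatty acids and oxysterols act as heterodimers with a retinoid X receptor (RXR), and orphan receptors such as the NR4A, NR5A and NR6A proteins act largely without a known hormone. Ligand exchanges corepressors for coactivators on the receptor, and in early embryonic cells members of the orphan groups are known as regulators of the pluripotency gene POU5F1.

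Library totals lay between 19454543 and 23036426 counts. The identity of the cultures was checked with marker genes. Of 4 stem cell markers, 3 were lower in NMP-L cells and none higher, and their summed level went from 4327 to 4478 TPM (a transcript level per length, scaled to the same total in each library) to 2967 to 3087 TPM. Of 5 tested NMP markers 4 were higher, among them T, CDX1 and CDX2, each with a mean of at most 0.0833 TPM in hESCs and between 15.7 and 20.3 TPM in NMP-L cells, while FGF8 was too low to be tested (0.97 TPM in hESCs and 0.25 TPM in NMP-L cells). Markers of other cells also moved. The summed endoderm list went from 0.59 to 1.52 TPM in hESCs to 11.8 to 21.4 TPM in NMP-L cells, with 1 of 6 markers tested, FOXA2, carrying nearly all of it, SOX17 at means below 0.02 TPM and TTR listed at 0. AFP went the other way, with 4, 11 and 15 counts in hESCs and 0 in each NMP-L library. A rise of 1 gene does not by itself identify endoderm. The neural progenitor list, of which SOX1 was the single gene of 4 to be tested and was higher, went from between 0.55 and 1.33 TPM to between 5.43 and 6.96 TPM, with PAX6 near 0 in NMP-L cells. The notochord and floor plate list (2 of 4 genes higher, CHRD and FOXJ1) went from between 19.5 and 20.8 TPM to between 28.4 and 53.1 TPM. FOXJ1 made up most of it, with means of 19.4 and 38.3 TPM. NOTO (3, 2 and 3 counts, then 36, 8 and 43) and SHH (0 in hESCs, then 12, 8 and 9) were below the filter. Their groups did not overlap either, and without a filter both were higher in edgeR (adjusted p = 0.00041 and 0.00056). The trophoblast and amnion list (2 of 4 higher, CGA near 0) went from between 44.7 and 51.1 TPM to between 67.3 and 71.5 TPM. Most of its level was TFAP2C, with means of 41.2 TPM in hESCs and 53.5 TPM in NMP-L cells, followed by KRT7 (6.31 and 15.8 TPM). The neural crest list (2 of 3 lower) went from between 24.6 and 29.2 TPM to between 2.87 and 3.62 TPM. FOXD3 carried most of this fall, with means of 21.4 TPM in hESCs and 0.783 TPM in NMP-L cells. SOX10 was at means of 4.75 and 2.40 TPM, and TFAP2A was near 0 in both states. A fall carried mostly by 1 gene does not by itself identify a loss of neural crest. The paraxial mesoderm list (1 of 4 lower) went from between 6.19 and 8.13 TPM to between 4.41 and 5.63 TPM. This fall was that of TBX6. At low counts, MSGN1 (0 in hESCs, then 7, 4 and 2) and MESP1 (1, 0 and 4, then 6, 8 and 5) went the other way without overlap, and MESP2 overlapped. The part of these cells in the receptor results was not tested, and in bulk RNA fewer cells of a type and less RNA per cell cannot be told apart.

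Nuclear receptor transcripts as a class were present at a similar order of magnitude in both cell states. The 43 members summed to 383.1, 370.3 and 400.4 TPM in the hESC libraries and to 440.3, 424.3 and 428.1 TPM in the NMP-L libraries. The groups did not overlap, and the difference of 46.3 TPM had an exact two-sided permutation p of 0.1, the smallest that 3 against 3 libraries can give. Only a minority of the family was abundant, with 11 members at a mean of 10 TPM or more in hESCs and 13 in NMP-L cells, and 20 members at 1 TPM or more in each state. A pair of orphan receptors, NR6A1 and NR2F6, made up between 40.8% and 46.7% of the summed level in every library. At the other end, 7 members were at or under 3 counts in all 6 libraries, which were NR1H4, NR2E1, NR0B2, NR2F1, NR1I3, HNF4A and NR0B1. Of these NR1H4 (the bile acid receptor FXR), NR2E1 (TLX of neural stem cells) and NR0B2 (SHP) had 0 counts throughout, which allows up to 0.125 to 0.160 CPM (counts scaled to the library total, adjusted by TMM) depending on the library.

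**Figure D1:**
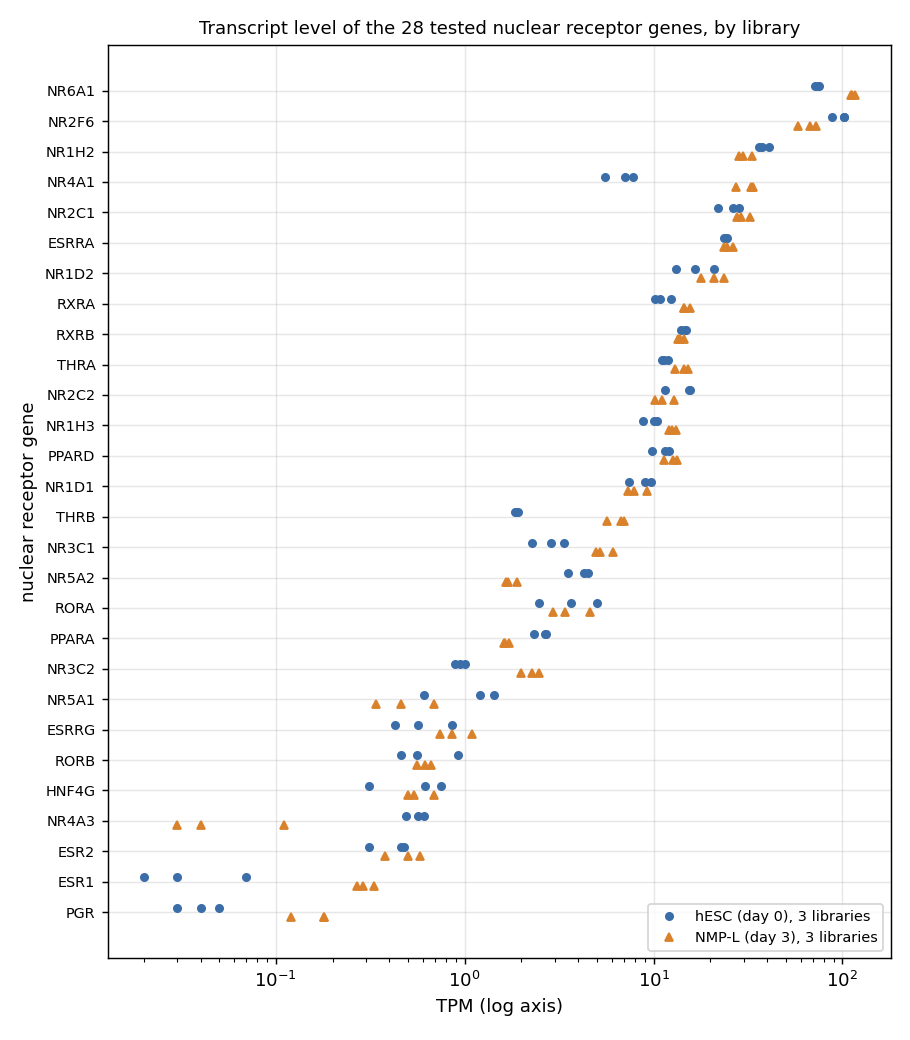
Levels of the 28 tested members in each library, in TPM on a log axis, ordered by the higher group mean, with circles for hESC and triangles for NMP-L libraries. NR6A1 and NR2F6 stand at the top, the NMP-L libraries of NR4A1 lie between 27.2 and 33.5 TPM against 5.52 to 7.83 TPM in hESCs, and those of NR4A3 at 0.11 TPM or less.

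The comparison of NMP-L cells with hESCs asks which receptors a cell gains or loses on the way from pluripotency to a caudal progenitor. Of the 43 members, 28 passed the filter on low counts and 15 did not. Of the 28, 15 differed at an adjusted p under 0.05 in edgeR's quasi-likelihood test, 8 higher and 7 lower in NMP-L cells. That is 53.6% of the tested members beside 55.8% of all 15517 genes tested (29.1% higher and 26.7% lower), so the share of receptors called was close to that of genes in general. At a size of at least 2-fold, 8 members differed, 5 higher (NR4A1, THRB, NR3C2, ESR1, PGR) and 3 lower (NR4A3, NR5A1, NR5A2). This is 28.6% of the tested members beside 18.6% of all genes tested, of which 9.38% were higher and 9.18% lower. ESR1, PGR and NR4A3 passed the filter through the group in which they were high, and without them 5 members remained at this size. With at least 10 counts required in every library, that was 5 of 25 tested members, beside 2052 of 14191 genes. The median log2 fold change of the 28 members was 0.06, beside 0.03 over all genes tested.

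**Figure D2:**
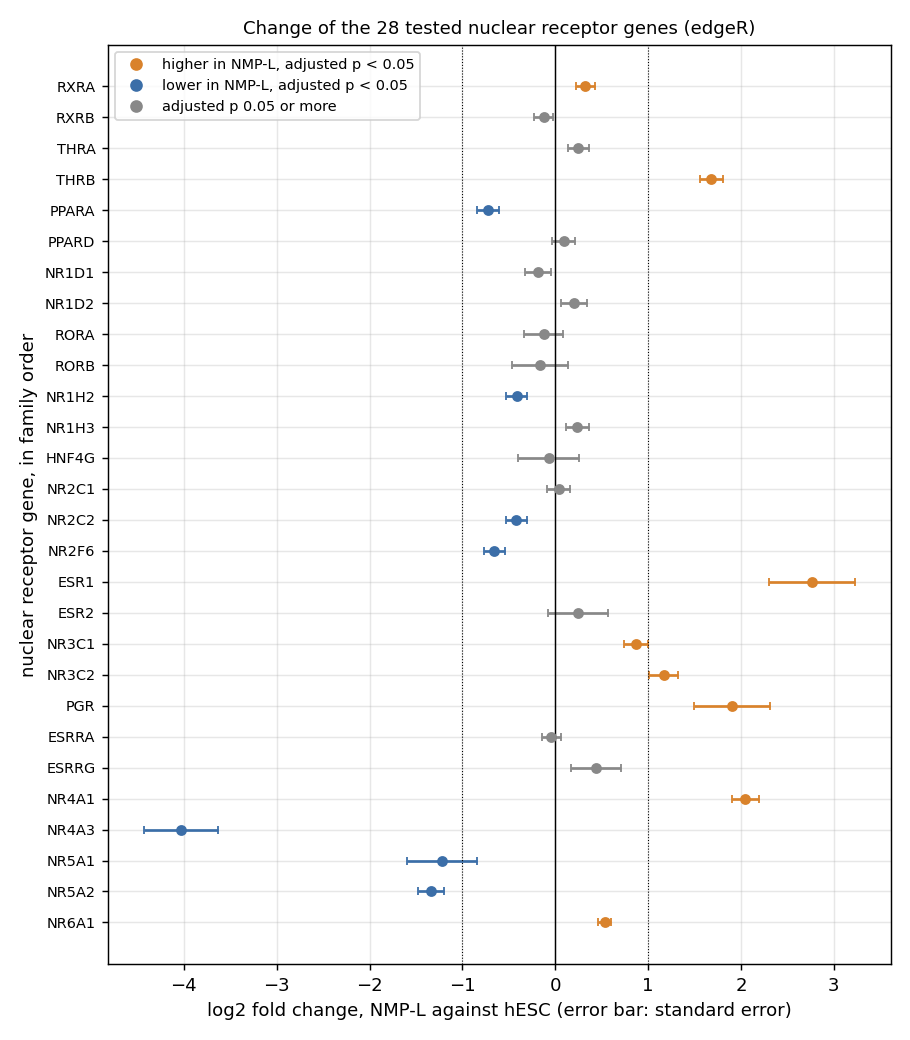
Log2 fold change of NMP-L against hESC for the 28 tested members in family order, with standard errors as bars, dotted lines at a 2-fold change and colours for members past the threshold. Changes run from 2.77 for ESR1 down to NR4A3, whose NMP-L libraries were all at 3 counts or fewer, so that its plotted value depends on the software's prior count.

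The NR4A receptors NR4A1 (NUR77), NR4A2 (NURR1) and NR4A3 (NOR1) are immediate early orphan receptors with closely related DNA-binding domains, whose genes are induced by many signals and which act without a classical ligand. NR4A1 and NR4A3 moved in opposite directions. NR4A1 (chr12:52416616-52453291 in GRCh37, plus strand) was counted 137, 176 and 191 times in the hESC libraries and 882, 815 and 726 times in the NMP-L libraries, or 6.80 ± 1.17 and 31.2 ± 3.48 TPM (SD, n = 3). Every NMP-L library lay above every hESC library, and NR4A1 went from rank 14 to rank 3 among the receptors. The log2 fold change was 2.04 (SE 0.146, adjusted p = 4.6e-07 by edgeR). NR4A1 shares 754 exonic bases on the opposite strand with NR4A1AS, which was not analysed here, and without the strand setting of the counting reads from the pair cannot be told apart. NR4A3 (chr9:102584137-102629173 in GRCh37, plus strand) was counted 29, 27 and 33 times in the hESC libraries and 3, 1 and 2 times in the NMP-L libraries. All NMP-L libraries were at or under the floor of 3 counts, so NR4A3 was at least 11.6-fold lower (floor set per library, adjusted p = 6.2e-06). NR4A2 had 8, 12 and 14 counts in hESCs and 4, 3 and 5 in NMP-L cells, without overlap but below the filter, and it was lower at an adjusted p of 0.011 when no filter was applied. NR4A1 thus held 88.3% ± 1.1 of the NR4A transcript level in hESCs and 99.5% ± 0.13 in NMP-L cells (SD, n = 3, exact permutation p = 0.1).

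The promoter windows of NR4A1 and NR4A3 are printed because these related genes moved apart, and that of NR6A1 because it was the most abundant receptor of NMP-L cells. TGACG is the half-site of the cyclic AMP response element, through which NR4A genes are classically induced, and TGACGTCA is the full palindrome, which holds TGACG on both strands. Each window covers 250 bases before to 50 bases after a RefSeq transcription start in GRCh38.p14, with TGACG on either strand in capitals. The windows are chr12:52022582-52022881 and chr12:52037465-52037764 on the plus strand for the 2 NR4A1 starts that had a window, chr9:99821635-99821934 on the plus strand for NR4A3 and chr9:124771262-124771561 on the minus strand for NR6A1.
NR4A1, first start: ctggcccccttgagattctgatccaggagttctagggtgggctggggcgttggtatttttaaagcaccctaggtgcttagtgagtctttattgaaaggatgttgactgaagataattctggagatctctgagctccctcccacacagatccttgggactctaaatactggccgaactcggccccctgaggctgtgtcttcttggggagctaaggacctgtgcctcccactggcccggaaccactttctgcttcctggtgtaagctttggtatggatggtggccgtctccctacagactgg
NR4A1, second start: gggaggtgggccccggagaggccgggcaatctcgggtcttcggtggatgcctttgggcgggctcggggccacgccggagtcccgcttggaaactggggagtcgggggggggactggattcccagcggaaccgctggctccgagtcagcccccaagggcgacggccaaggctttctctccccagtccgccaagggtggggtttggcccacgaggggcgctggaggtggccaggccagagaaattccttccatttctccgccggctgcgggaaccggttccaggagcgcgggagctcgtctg
NR4A3: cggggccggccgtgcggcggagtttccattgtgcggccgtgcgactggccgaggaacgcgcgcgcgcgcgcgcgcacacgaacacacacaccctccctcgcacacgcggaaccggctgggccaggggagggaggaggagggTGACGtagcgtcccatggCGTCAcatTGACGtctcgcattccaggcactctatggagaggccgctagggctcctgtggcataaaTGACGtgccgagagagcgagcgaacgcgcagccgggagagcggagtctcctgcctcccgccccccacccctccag
NR6A1: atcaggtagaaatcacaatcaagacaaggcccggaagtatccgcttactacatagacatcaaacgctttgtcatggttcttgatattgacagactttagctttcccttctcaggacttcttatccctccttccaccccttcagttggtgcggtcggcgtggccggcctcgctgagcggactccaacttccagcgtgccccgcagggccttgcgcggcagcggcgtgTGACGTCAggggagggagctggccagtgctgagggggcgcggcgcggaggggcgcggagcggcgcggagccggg
The NR4A3 window held 4 copies of TGACG, counted over both strands, and the windows at these NR4A1 starts held 0. Any further start of NR4A1 was not examined, so the count does not cover all promoters the gene may use. The NR6A1 window held 1 TGACGTCA, counted as 2 copies of TGACG. Among 27305 promoter windows of the same length, 1 per gene, 25.01% held TGACG and 1.98% held TGACGTCA. Such a match is a description of the letters in the window and says nothing about occupancy in these cells. RefSeq windows were found for 38 of the 43 members, and those of VDR, HNF4G, NR2F6, NR4A2 and NR0B2 were not among them.

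NR6A1, known as germ cell nuclear factor, is an orphan receptor that represses Pou5f1 as mouse embryos gastrulate. It was abundant in both states and higher in NMP-L cells (chr9:127279554-127533590 in GRCh37, minus strand). Its level was 74.8, 71.7 and 73.8 TPM in hESCs and 112, 112 and 116 TPM in NMP-L cells. The groups did not overlap, and NR6A1 was the second most abundant receptor of hESCs and the most abundant of NMP-L cells, with a log2 fold change of 0.53 (SE 0.066, adjusted p = 4e-05). NR2F6 (EAR2), an orphan member of the COUP-TF group, took the reverse course. Its level was 88.5, 101 and 102 TPM in hESCs and 72.6, 67.1 and 58.4 TPM in NMP-L cells, a log2 fold change of -0.65 (SE 0.114, adjusted p = 0.00048) with no overlap of the groups. The other COUP-TF genes, NR2F1 and NR2F2, which are regulators of later neural and mesenchymal tissues, were almost silent. NR2F1 had a single count in 1 NMP-L library, and NR2F2 had 1, 2 and 5 counts in hESCs and 1, 0 and 1 in NMP-L cells and was not called without a filter (adjusted p = 0.16). NR2F6 held 99.9% of the COUP-TF level in hESCs and 100% in NMP-L cells.

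The NR5A receptors are activators of POU5F1 in mouse stem cells (NR5A2, also LRH-1) and of steroid synthesis in adrenal and gonad (NR5A1, also SF-1). Both were lower in NMP-L cells. NR5A2 had 196, 173 and 209 counts in hESCs and 99, 81 and 88 in NMP-L cells, with no overlap and a log2 fold change of -1.34 (SE 0.143, adjusted p = 1.2e-05). NR5A1 had 17, 36 and 41 counts in hESCs and 22, 14 and 11 in NMP-L cells. The groups overlapped through hESC library 1, and the log2 fold change of -1.21 (SE 0.376, adjusted p = 0.016) lost its call without hESC library 2 (adjusted p = 0.06), without hESC library 3 (adjusted p = 0.091) or without NMP-L library 3 (adjusted p = 0.072). The summed NR5A level was 5.19 ± 0.638 TPM in hESCs and 2.24 ± 0.294 TPM in NMP-L cells (SD, n = 3). Within it NR5A2 held 79.4% ± 7.1 and 78.3% ± 5 (exact permutation p = 0.8).

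Steroid receptors were scarce in hESCs, and NR3C1, NR3C2, ESR1 and PGR were higher in NMP-L cells, beside 29.1% of all tested genes that were higher. ESR1 and PGR passed the filter through their NMP-L libraries, so their calls add nothing to a count over the group. Their summed level was 4.28 ± 0.621 TPM in hESCs and 8.61 ± 0.683 TPM in NMP-L cells (SD, n = 3). The glucocorticoid receptor NR3C1 and the mineralocorticoid receptor NR3C2, which share cortisol as a ligand, made up most of it. NR3C1 had 174, 144 and 156 counts in hESCs and 315, 311 and 393 in NMP-L cells, a log2 fold change of 0.87 (SE 0.127, adjusted p = 0.00013). NR3C2 had 53, 55 and 48 counts in hESCs and 123, 132 and 156 in NMP-L cells, a log2 fold change of 1.17 (SE 0.157, adjusted p = 7.1e-05). Neither gene's groups overlapped, and NR3C1 held 66% ± 4.4 of the group's level in hESCs and 62.9% ± 2 in NMP-L cells (exact permutation p = 0.4). The estrogen receptor ESR1 and the progesterone receptor PGR stayed at low counts. ESR1 had 4, 1 and 2 counts in hESCs and 19, 21 and 18 in NMP-L cells (log2 fold change 2.77, SE 0.462, adjusted p = 0.00036). PGR had 6, 3 and 4 counts in hESCs and 21, 22 and 15 in NMP-L cells (log2 fold change 1.91, SE 0.410, adjusted p = 0.002). For both, each NMP-L library lay above each hESC library, and the mean NMP-L level was 0.297 TPM for ESR1 and 0.16 TPM for PGR. PGR shares 737 exonic bases with PGR-AS1 on the opposite strand, which had at most 2 counts in any library. The second estrogen receptor ESR2, with 10 to 18 counts in hESCs and 16 to 22 in NMP-L cells, did not pass the threshold (log2 fold change 0.24, 95% interval -0.47 to 0.95).

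The thyroid hormone receptors are RXR partners that repress target genes without hormone and activate them with it. Their balance moved towards THRB (chr3:24158644-24537247 in GRCh37, minus strand). THRB had 128, 139 and 137 counts in hESCs against 450, 522 and 544 in NMP-L cells, a log2 fold change of 1.68 (SE 0.121, adjusted p = 4.7e-07) with no overlap. THRA remained the more abundant gene, at 11.4, 11.0 and 11.9 TPM in hESCs and 15.3, 13.0 and 14.4 TPM in NMP-L cells, and did not pass the threshold (log2 fold change 0.25, 95% interval 0.01 to 0.49, adjusted p = 0.075). It passed with library size as the sole scaling (adjusted p = 0.027) and on TPM (adjusted p = 0.028). THRB held 14.1% ± 0.26 of the summed TPM of both genes in hESCs and 31.3% ± 4 in NMP-L cells (SD, n = 3, exact permutation p = 0.1). THRA shares 473 exonic bases with NR1D1 on the opposite strand, and without knowledge of the strand setting of the counting their reads there cannot be told apart. The same holds in all for 12 members that share exonic bases with a gene of the table on the opposite strand.

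The RXR genes encode the common partner of the heterodimeric receptors. RXRA was at 10.2, 10.8 and 12.4 TPM in hESCs and 15.6, 14.5 and 14.6 TPM in NMP-L cells, and RXRB at 14.7, 14.0 and 14.8 TPM in hESCs and 13.9, 13.6 and 14.5 TPM in NMP-L cells. RXRA was higher in NMP-L cells by a log2 fold change of 0.33 (SE 0.104, adjusted p = 0.019), without overlap, while RXRB, whose groups overlapped on TPM but not on scaled counts, was not called (log2 fold change -0.12, 95% interval -0.34 to 0.10). The RXRA call was lost without hESC library 1 (adjusted p = 0.07), hESC library 2 (adjusted p = 0.054), NMP-L library 1 (adjusted p = 0.065) or NMP-L library 2 (adjusted p = 0.052). RXRA took 43.3% ± 2.2 of the RXR level in hESCs and 51.3% ± 1.2 in NMP-L cells (SD, n = 3, exact permutation p = 0.1). RXRG, typical of muscle and brain, had 0 counts in every hESC library and 7, 1 and 4 in the NMP-L libraries. The mean of the NMP-L libraries was 1.12-fold the mean floor of the hESC libraries, but NMP-L library 2 was itself under 3 counts. RXRG was higher at an adjusted p of 0.023 in edgeR when no filter on low counts was applied. RXRB shares 361 exonic bases with SLC39A7 on the opposite strand.

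**Figure D3:**
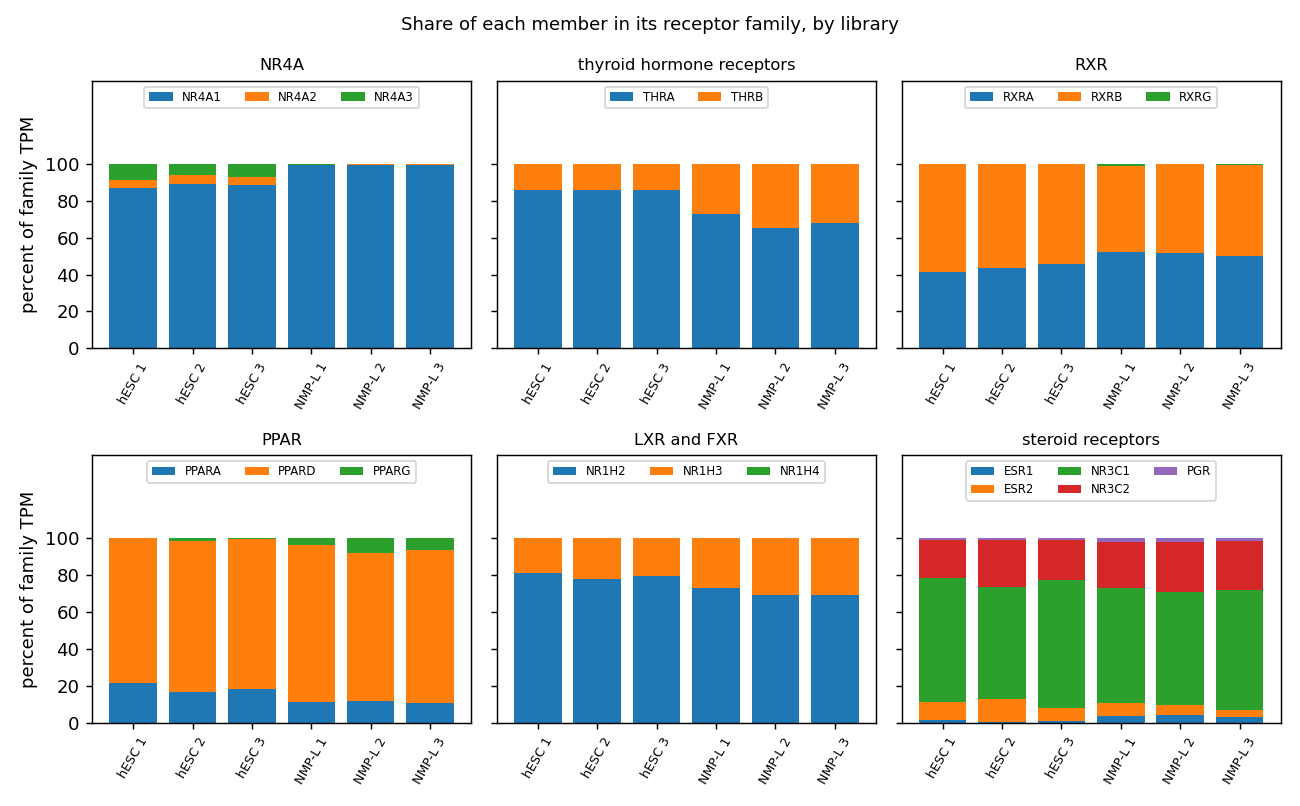
Percent of the family's summed TPM taken by each member, in each of the 6 libraries, for 6 receptor families. NR4A1 goes from 88.3% to 99.5% of the NR4A level, THRB from 14.1% to 31.3% of the thyroid hormone receptor level and RXRA from 43.3% to 51.3% of the RXR level, with no overlap between groups.

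The peroxisome proliferator-activated receptors (PPARs) sense fatty acids. PPARD, the broadly expressed form, was the main one at 9.85, 11.5 and 12.0 TPM in hESCs and 13.4, 11.4 and 12.7 TPM in NMP-L cells, overlapping between groups (log2 fold change 0.09, 95% interval -0.17 to 0.35). PPARA, which drives fatty acid oxidation in liver, was lower in NMP-L cells, with 231 to 256 counts in hESCs and 164 to 183 in NMP-L cells (log2 fold change -0.73, SE 0.118, adjusted p = 0.00029). PPARG, the adipocyte form, had 0, 4 and 1 counts in hESCs and 9, 15 and 18 in NMP-L cells. Its groups did not overlap, it was below the filter, and without a filter it was higher at an adjusted p of 0.0037. Of 13 PPAR target genes of lipid use, 9 were tested, 2 were higher and 6 lower in NMP-L cells, beside 29.1% and 26.7% of all tested genes, with a median log2 fold change of -0.57 beside 0.03. Under upper-quartile scaling or DESeq2 the split was 1 higher and 6 lower. The steepest fall was that of ANGPTL4, a secreted lipase inhibitor, with means of 11.4 TPM in hESCs and 0.37 TPM in NMP-L cells (log2 fold change -5.31, SE 0.248, adjusted p = 1.6e-08). With 4, 9 and 4 counts in NMP-L cells, ANGPTL4 passed the filter through its hESC libraries, and 5 PPAR target genes were lower where at least 10 counts were required in every library. CPT1A, which carries long-chain fatty acids into mitochondria, fell by 1.28 and the lipid droplet protein PLIN2 by 1.03 on the log2 scale, whereas ACADM of medium-chain oxidation was higher by 0.58. HADHA was higher by 0.23, a call lost under upper-quartile scaling (adjusted p = 0.062), in DESeq2 (adjusted p = 0.054) and without hESC library 1 or 3 or NMP-L library 1 or 2 (adjusted p at most 0.12).

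The liver X receptors NR1H2 (LXR beta) and NR1H3 (LXR alpha) bind oxysterols and control cholesterol export and lipid synthesis. NR1H2 was the third most abundant receptor of hESCs, at 37.3, 36.1 and 40.6 TPM, and was at 33.1, 29.6 and 28.4 TPM in NMP-L cells. It was lower without overlap (log2 fold change -0.42, SE 0.108, adjusted p = 0.0063). NR1H3 was at 8.75, 10.1 and 10.4 TPM in hESCs and 12.1, 13.2 and 12.5 TPM in NMP-L cells and was not called (log2 fold change 0.24, 95% interval -0.04 to 0.51), although it passed on TPM (adjusted p = 0.019). NR1H2 held 79.6% ± 1.4 of their level in hESCs and 70.6% ± 2.2 in NMP-L cells (SD, n = 3, exact permutation p = 0.1). NR1H3 shares 189 exonic bases on the opposite strand with ACP2, which was itself higher in NMP-L cells (log2 fold change 1.24), and NR1H2 shares 1182 with NAPSA, which had at most 14 counts in any library. Of 7 LXR target genes, all tested, 5 were higher and 1 lower, beside 29.1% and 26.7% of all tested genes, and their median log2 fold change was 0.82 beside 0.03 over all tested genes. SREBF1, the master factor of fatty acid synthesis, was higher by 1.30, the cholesterol exporter ABCA1 by 0.91 and SMPDL3A by 0.89, while the phospholipid enzyme LPCAT3 fell by 0.42 on the log2 scale. The SMPDL3A call was lost without hESC library 1 (adjusted p = 0.05) or hESC library 3 (adjusted p = 0.083).

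The REV-ERB receptors NR1D1 and NR1D2 repress, and the ROR receptors RORA and RORB activate, genes of the circadian clock through the same DNA element. None of the 4 passed the threshold. NR1D2 was the main one, at 20.9, 13.2 and 16.5 TPM in hESCs and 17.9, 20.8 and 23.7 TPM in NMP-L cells, with overlapping groups (log2 fold change 0.20, 95% interval -0.11 to 0.51). Among the alternatives run it passed only without hESC library 1 (log2 fold change 0.35, adjusted p = 0.03). The log2 fold changes of the others lay between -0.19 and -0.12, with a 95% interval of -0.50 to 0.12 for NR1D1, -0.58 to 0.34 for RORA and -0.83 to 0.49 for RORB. Of 16 clock partners, all tested, 3 were higher and 5 lower in NMP-L cells, with a median log2 fold change of -0.14. Called in either direction were thus 8 of 16, beside 55.8% of all tested genes, a share near the background. NPAS2, a paralogue of CLOCK, was higher by 2.16, ARNTL by 0.50 and ARNTL2 by 0.47, whereas the repressors BHLHE41, PER3 and PER1 fell by 1.46, 1.07 and 0.82 on the log2 scale.

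Among the remaining orphan receptors of appreciable level, the testicular receptors NR2C1 and NR2C2, known as repressors of embryonic globin genes, were moderately abundant in both states. NR2C1 was at 28.3, 22.0 and 26.4 TPM in hESCs and 29.1, 27.7 and 32.6 TPM in NMP-L cells, with overlapping groups (log2 fold change 0.04, 95% interval -0.23 to 0.30). NR2C2 was at 15.6, 11.5 and 15.4 TPM in hESCs and 11.1, 10.1 and 12.8 TPM in NMP-L cells, overlapping on this scale. On scaled counts its groups did not overlap and it was lower (log2 fold change -0.42, SE 0.117, adjusted p = 0.0097). The call was lost on TPM (adjusted p = 0.1), without hESC library 3 (adjusted p = 0.052) and without NMP-L library 2 (adjusted p = 0.053). NR2C2 shares 7157 exonic bases with MRPS25 on the opposite strand, and MRPS25 was higher in NMP-L cells (log2 fold change 0.35, adjusted p = 0.012). The estrogen-related receptor ESRRA, an activator of mitochondrial genes, stood at 24.4, 23.5 and 24.2 TPM in hESCs and 26.5, 24.5 and 23.7 TPM in NMP-L cells, overlapping and with a narrow interval (log2 fold change -0.04, 95% interval -0.26 to 0.18). ESRRG (log2 fold change 0.44, 95% interval -0.15 to 1.02) and HNF4G (-0.07, 95% interval -0.80 to 0.66) were tested at 12 to 61 counts and were not called. Of ESRRB, a naive pluripotency factor in mouse, 4 to 15 counts were found in any library.

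The last untested members were receptors of differentiated epithelia and retina. The vitamin D receptor VDR had 5, 7 and 9 counts in hESCs and 4, 0 and 5 in NMP-L cells, and NR2E3 of photoreceptors had 4 to 6 and 2 to 4. NR1I2 (PXR, a sensor of foreign compounds) had 8, 11 and 13 counts in hESCs and 2, 5 and 1 in NMP-L cells, and without a filter it was lower at an adjusted p of 0.008. HNF4A, the hepatocyte and gut factor, had 1 count in each hESC library and 2, 3 and 3 in NMP-L cells, at or under the floor also in the libraries in which FOXA2 was higher. With no filter 19 of 40 tested members were called, 10 of them higher, beside 9048 of 20918 genes. The added members were RXRG, PPARG, NR1I2 and NR4A2.

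Coregulators are the proteins through which receptors act on chromatin. Of 16 coactivator genes, all tested, 7 were higher and 4 lower in NMP-L cells, beside 29.1% and 26.7% of all tested genes, with a median log2 fold change of 0.08 beside 0.03. PPARGC1B, a partner of ESRRA in mitochondrial gene expression, was higher by 0.91, NCOA7 by 0.81 and NCOA6 by 0.79, whereas PPRC1 fell by 0.90, PPARGC1A by 0.65 and the arginine methyltransferase PRMT1 by 0.49 on the log2 scale. Of 10 corepressor genes, all tested, 3 were higher and 5 lower, against the same shares of all tested genes (29.1% and 26.7%), with a median of -0.10. NRIP1 (RIP140), a ligand-dependent corepressor, was at means of 5.87 TPM in hESCs and 23.4 TPM in NMP-L cells (log2 fold change 1.90, SE 0.141, adjusted p = 6.1e-07). TBL1X of the NCoR complex was higher by 0.71. LCOR was higher by 0.43, a call lost under size-factor scaling (adjusted p = 0.052), on TPM (adjusted p = 0.11) and without hESC library 2 or 3 or NMP-L library 2 or 3. HDAC3, KDM1A and GPS2 fell by 0.55, 0.53 and 0.44 on the log2 scale.

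Of 7 glucocorticoid receptor targets 6 were tested, 3 were higher and 3 lower, beside 29.1% and 26.7% of all tested genes, itself a nearly even split, and the median log2 fold change was -0.07. TSC22D3 (GILZ) was higher by 1.06, the chaperone FKBP5 by 0.68 and the phosphatase DUSP1 by 0.35, whereas PER1, which the clock list also holds, fell by 0.82, KLF9 by 0.80 and SGK1 by 0.49 on the log2 scale. The DUSP1 call was lost with size factors (adjusted p = 0.053), upper-quartile scaling (adjusted p = 0.067) or DESeq2 (adjusted p = 0.1), and without hESC library 1 or 3 or NMP-L library 1 or 2. Of 19 genes that make, inactivate or import receptor ligands, 11 were tested, 4 were higher and 3 lower (7 called, beside 55.8% of all tested genes), with a median of 0.12. CYP7B1 and CYP27A1 of oxysterol metabolism were higher by 1.34 and 0.93. CYP7B1 had 9, 10 and 8 counts in hESCs and 21, 22 and 38 in NMP-L cells, and where at least 10 counts were required in every library it was not tested and 3 genes of the list were higher. HSD11B2, which inactivates cortisol, fell by 1.24, the vitamin D hydroxylase CYP2R1 by 0.65 and the transporter SLC16A10 by 0.64 on the log2 scale. The deiodinases DIO1, DIO2 and DIO3, which activate or inactivate thyroid hormone, were below the filter, with means of at most 0.123 TPM. For comparison, of the 3 retinoic acid receptors RARA was higher by 0.75, RARG fell by 0.97 on the log2 scale and RARB was not called (log2 fold change -0.42, adjusted p = 0.28).

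**Figure D4:**
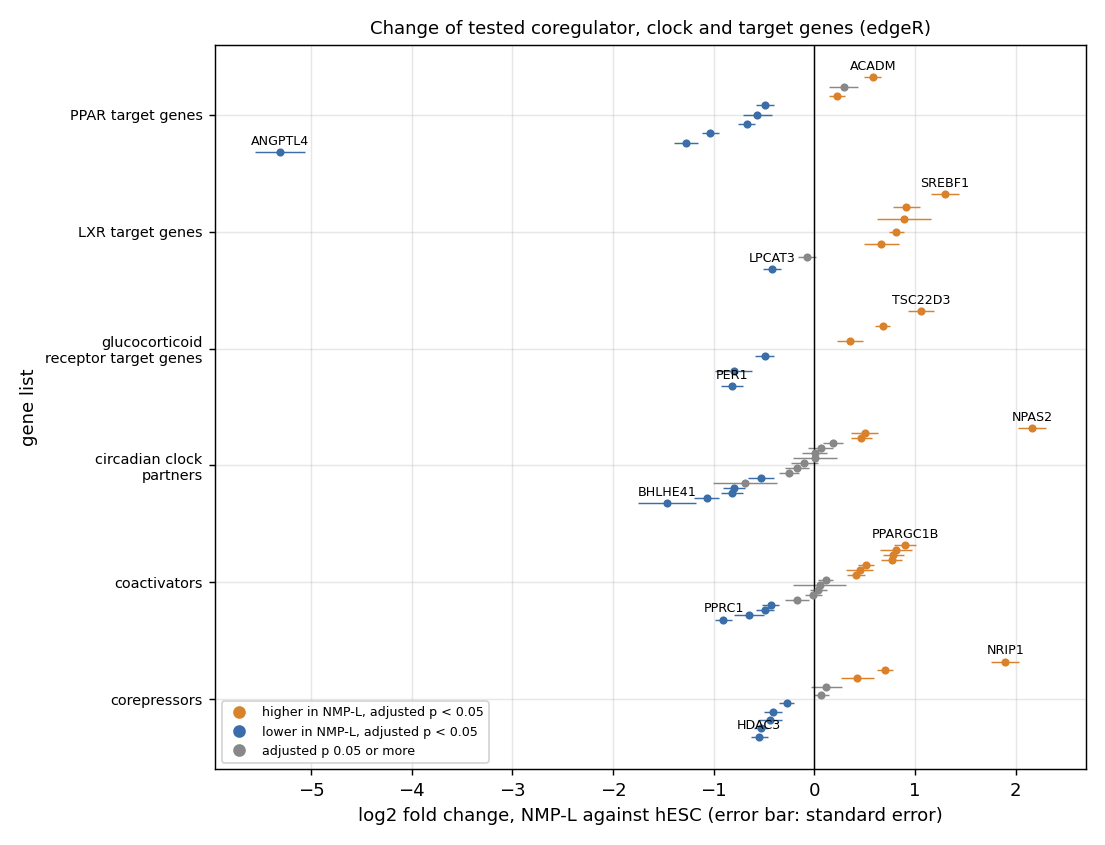
Log2 fold change with standard error of the tested genes of 6 lists, with the outermost gene of each list named. Of the LXR target genes 5 lie to the right of 0 past the threshold and 1 to the left, and of the PPAR target genes 2 to the right and 6 to the left, with ANGPTL4 at -5.31.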

How the data were processed

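Polyadenylated RNA of 3 hESC and 3 NMP-L libraries was analysed. The values used were expected counts from RSEM, which the authors deposited gene by gene without scaling libraries to each other, and TPM, deposited beside them, which RSEM scales by effective transcript length to 1000000 per library. The submitters' processing notes name cutadapt 1.9.1, STAR 2.5.2a, RSEM 1.3.0, DESeq2 1.12.3 and hg19. The annotation and the strand setting are not given in the sources used here. The paper's text describes no test for these libraries.

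Rounded expected counts were tested with edgeR 4.0.16 under R 4.3.3 (filterByExpr with a minimum count of 10, TMM, glmQLFit and glmQLFTest, Benjamini-Hochberg adjustment over 15517 of 27672 genes, threshold 0.05). The standard error is the log2 fold change divided by the root of F, and 95% intervals use the t distribution on the fit's total degrees of freedom. CPM were scaled by TMM. The floor was 3 counts per library, and floors cover counting error only. Levels and family shares were compared on TPM by exact two-sided permutation of libraries. The scripts were tested on simulated data.

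Members and lists were chosen with earlier results of these data known. Library values were printed for members past the threshold at 2-fold, with a mean of 10 TPM or at the floor in a single group, and of other lists at most the 3 largest rises and falls among called genes were named, 1 of which is not reported here (the DIO genes and the overlapping antisense genes were added after their values were seen). Further genes were printed as ranges. The alternatives were other scalings, DESeq2 1.42.0, limma 3.58.1 on log2(TPM + 0.1), other filters, a replicate block and leaving out each library. Positions came from GENCODE release 44 on GRCh37. No per-sample column was left unused.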

Additional observations from a re-analysis of the deposited data

How the results depend on the processing

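The number of called members was 15 by edgeR and lay between 12 and 19 over the alternatives. The 12 were of 25 tested members, beside 7849 of 14191 genes, with at least 10 counts required in every library. The 19 were of 40 tested members, beside 9048 of 20918 genes, without a filter. Of the 15, 12 kept their direction and call wherever tested, 3 (RXRA, NR2C2, NR5A1) lost the call under some, and 0 reversed. At 2-fold or more 8 members were called, but 5 with at least 10 counts required in every library, which removes ESR1, PGR and NR4A3, 12 without a filter and 6 on TPM. These were of 28, 25, 40 and 28 tested members. In the same order, 2880 of 15517, 2052 of 14191, 3417 of 20918 and 2767 of 15517 genes were called. Library size alone moved the median log2 fold change of all genes to 0.10 and TPM with limma to 0.12, from 0.03.

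The difference in summed level was 46.3 on TPM and 115 on CPM, which is not per length. As shares of expected counts in place of TPM, the differences were 24.1 percentage points for THRB (17.1 on TPM), 11.1 for PPARD (2.64) and 19.0 for NR4A1 (11.2). Uncalled members changed sign: HNF4G 0.00 and ESRRA 0.03 with library size alone, HNF4G 0.09, ESRRA 0.05 and RORA 0.00 on TPM, and, leaving out 1 library, PPARD from -0.03 to 0.15, RORA from -0.33 to 0.11, RORB from -0.36 to 0.13, HNF4G from -0.38 to 0.18, NR2C1 from -0.05 to 0.14 and ESRRA from -0.10 to 0.02. The cause was not tested.

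Replicate numbers were shared by the groups, but deviations of same-numbered libraries correlated at -0.37, -0.06 and -0.13, and 0 of 6 libraries correlated best with its own number. With the replicate number as a block 14 of 28 tested members were called, 8 at 2-fold or more, beside 7560 and 2896 of 15517 genes. RXRA was lost (adjusted p = 0.063), as were LCOR (0.051), HADHA (0.078) and DUSP1 (0.074). With 3 libraries a group, single-library levels under about 10 counts limit the precision.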
